A study of Mus musculus with 6 samples.

Results

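The Sonic hedgehog (Shh) pathway was followed through 9 genes in cells labelled as motor neurons (MNs) and derived from mouse embryonic stem cells (mESCs). They were the ligand Shh, the receptor Ptch1, the ligand-binding protein Hhip, the transducer Smo, the inhibitor Sufu, the transcription factors Gli1, Gli2 and Gli3, and Foxa2, a transcription factor of the floor plate. The 9 genes were chosen by name and each matched a single row. The table has 41945 rows, of which 33345 remain when 1 row is kept per gene symbol. All 9 reached at least 1 FPKM (sequenced fragments scaled to transcript length and to library depth) in either genotype. They also lay above 0 in both, and 14926 genes in all met these limits.

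RNA-Seq was done on 3 samples of Hb9 control and 3 samples of A2 SMA cells, where SMA is spinal muscular atrophy. Hb9 control cells are labelled wildtype, and the methods of the study give them as SMN2+/+;mSmn+/+. A2 SMA cells are SMN2+/+;mSmn-/-, so they lack the mouse gene Smn1 and carry the human SMN2 transgene that, by the methods, the controls carry too. Both lines are of the FVB/N background and carry HB9:eGFP, a reporter in which the promoter of the MN gene Hb9 (Mnx1) drives green fluorescent protein (GFP). Embryoid bodies, which are floating aggregates of mESCs, of both genotypes received 1 µM retinoic acid and 1 µM Smoothened agonist for 5 days, after which living GFP+ cells were collected by fluorescence-activated cell sorting. Each genotype was 1 mESC line, so the effect of the genotype and a difference between the lines cannot be told apart. The table holds 1 pooled FPKM value per genotype, so there was no spread between samples against which to test a difference. A gene was therefore counted as higher or lower past a 2-fold difference, and the share of all genes past the same limit is given with the counts.

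Shh is a secreted signal of the notochord and of the floor plate, the strip of cells at the ventral midline of the neural tube. It binds Ptch1, which otherwise holds Smo inactive, and active Smo at the primary cilium releases the Gli factors from Sufu so that they turn on target genes. Gli1, Ptch1 and Hhip are themselves targets of the pathway, and Foxa2, Nkx2-2, Olig2 and the Nkx6 genes are induced by it in ventral neural progenitors. Smoothened agonist acts directly on Smo and therefore stands in for the ligand in these cultures.

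The targeted gene and the markers of the sorted cells were examined first. Smn1 was measured at 137 FPKM in Hb9 control and 5.26 FPKM in A2 SMA (log2 ratio -4.70), in the direction of the labels. Mnx1, the gene whose promoter drives the sorting reporter, was measured at 41.2 and 44.2 FPKM. The other defining MN markers did not share this level. Lhx3, a partner of Isl1 in MN specification, was measured at 27.6 FPKM in Hb9 control and 0.348 FPKM in A2 SMA, and Chat, the enzyme that makes acetylcholine, at 15.5 and 0.344 FPKM. Of 7 MN markers at or above 1 FPKM, 6 were lower in A2 SMA by at least 2-fold, beside 22.4% of all genes. Of the 10 MN markers listed, Slc18a3 and Tubb3 were not found under their symbols. The summed level of the 8 found was 296 and 56.1 FPKM, of which Mnx1 made up 41.2 and 44.2 FPKM. Markers of pluripotent stem cells went the other way, with 7 of 8 higher in A2 SMA by at least 2-fold, beside 6.83% of all genes, and summed levels of 396 and 1661 FPKM. The A2 SMA cells are therefore named here by their label, since MN markers other than Mnx1 were low or near 0 in them. Their markers moved with the genotype in every result given here, and their part in those results was not tested.

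Across the 14926 genes, the median log2 ratio of A2 SMA over Hb9 control was -0.29, and 65.9% of ratios were below 0. Genes lower in A2 SMA by at least 2-fold made up 22.4% of all genes, and genes higher by at least 2-fold made up 6.83%. Ratios are given as measured, and the difference from the median gene is added where it matters to a gene.

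Among the 9 pathway genes, 4 were lower in A2 SMA by at least 2-fold (Shh, Foxa2, Smo and Sufu), beside 22.4% of all genes, and 2 were higher by at least 2-fold (Gli1 and Gli2), beside 6.83% of all genes. Ptch1, Hhip and Gli3 lay between these limits. The median log2 ratio of the 9 genes was -0.32, beside -0.29 over all genes. Shh alone was lower by at least 4-fold, beside 8.88% of all genes, and 0 were higher by at least 4-fold, beside 1.8%. With a limit of 1.5-fold the same 4 genes were lower and the same 2 higher, beside 35.4% and 12.7% of all genes. In these bulk samples, fewer cells of a type and less RNA per cell cannot be told apart.

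**Figure D1:**
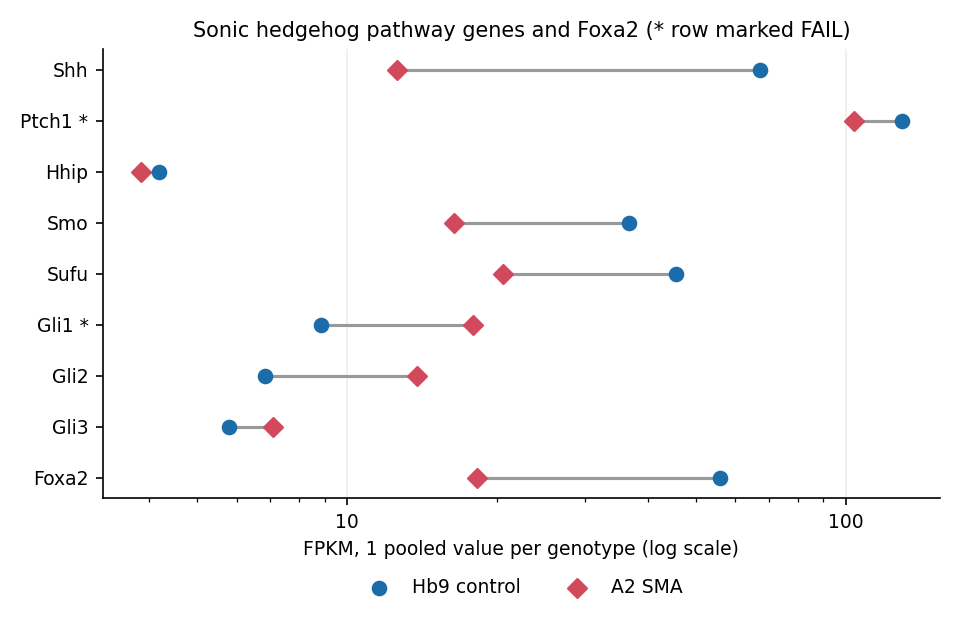
FPKM of the 9 genes on a log axis, with 1 pooled value per genotype (blue circles, Hb9 control; red diamonds, A2 SMA) joined by a gray line. The longest line is that of Shh, from 67.2 to 12.6 FPKM, and the diamonds of Gli1, Gli2 and Gli3 lie to the right of their circles. Asterisks mark genes whose row has the status FAIL.

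To show the sequence context of the genes that lay past 2-fold, the 250 bases upstream of their RefSeq start sites (build GRCm38.p6) were read for those with a promoter entry, with every CG dinucleotide in capitals. The windows are chr2:148046970-148047219 (minus strand) for the most upstream of 3 Foxa2 starts, chr6:29735247-29735496 (plus strand) for Smo, chr19:46396646-46396895 (plus strand) for Sufu and chr1:119053620-119053869 (minus strand) for Gli2. Shh and Gli1 were not among the promoter entries.
Foxa2: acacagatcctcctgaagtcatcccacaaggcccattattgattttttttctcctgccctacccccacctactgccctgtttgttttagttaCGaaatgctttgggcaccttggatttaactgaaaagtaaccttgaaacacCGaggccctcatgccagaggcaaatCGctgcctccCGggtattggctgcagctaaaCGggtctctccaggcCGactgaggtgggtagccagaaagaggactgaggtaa
Smo: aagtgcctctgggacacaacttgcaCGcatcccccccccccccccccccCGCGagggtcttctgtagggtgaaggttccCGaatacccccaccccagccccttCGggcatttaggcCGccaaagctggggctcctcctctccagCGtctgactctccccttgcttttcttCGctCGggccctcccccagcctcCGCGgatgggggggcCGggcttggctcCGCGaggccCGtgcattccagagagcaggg
Sufu: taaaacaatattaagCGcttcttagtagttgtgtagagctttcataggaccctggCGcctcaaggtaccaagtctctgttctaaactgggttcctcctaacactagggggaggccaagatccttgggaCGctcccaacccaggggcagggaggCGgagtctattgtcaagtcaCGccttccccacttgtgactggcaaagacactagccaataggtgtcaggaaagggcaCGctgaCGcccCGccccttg
Gli2: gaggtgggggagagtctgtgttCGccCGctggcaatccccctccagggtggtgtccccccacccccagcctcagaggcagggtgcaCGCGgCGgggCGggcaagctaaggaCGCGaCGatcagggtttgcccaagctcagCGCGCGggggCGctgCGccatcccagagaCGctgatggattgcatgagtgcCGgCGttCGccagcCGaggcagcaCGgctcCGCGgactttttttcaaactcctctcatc

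These stretches overlapped no exon upstream of the start site in the GENCODE annotation of GRCm38. Full RefSeq windows, which run from 250 bases before to just after the start and span 300 bases, held 12 CG dinucleotides for this Foxa2 start, 17 for Smo, 12 for Sufu and 28 for Gli2. The median over all 32851 windows was 7 and the upper quartile was 20, so of these 4 windows that of Gli2 lay above the upper quartile. The other Foxa2 starts had 13 and 23, the latter also above it. The windows of Ptch1 (47), Gli3 (39) and Hhip (30) held more. The binding motif of the Gli factors, searched as GACCACCCA on both strands, was in none of the 9 windows of the 7 genes with an entry, beside 0.253% of all windows. Its core CCACCCA, which lies within the longer motif, was in none of them, beside 9.30% of all windows, and neither was the forkhead motif TGTTTAC, beside 3.65%.

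Shh, the ligand, was measured at 67.2 FPKM in Hb9 control and 12.6 FPKM in A2 SMA. It was 5.34-fold lower in A2 SMA (log2 ratio -2.42, and -2.13 relative to the median gene), and 6.34% of all genes had a lower ratio. It went from the second to the seventh place among the 9 genes by level. In Hb9 control 84.1% of all genes lay below the level of Shh, and in A2 SMA 49.5% did. Its row spans chr5:28783355-29260535 in NCBI m37, the build of the deposited table, a locus of 477181 bases that it shares with 3 other annotated genes. These 3 were all at or below 0.549 FPKM in both genotypes, and 9530036O11Rik, which overlaps Shh on the opposite strand over 8983 bases in GENCODE, was at 0.0778 and 0.0131 FPKM.

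The other Hedgehog ligands were barely detected. Ihh was measured at 0.751 and 0.937 FPKM and Dhh at 0.404 and 0.534 FPKM in Hb9 control and A2 SMA. Of the 8 genes of ligands and ligand release, 5 reached 1 FPKM and 3 had at least 2-fold lower levels in A2 SMA, with a median log2 ratio of -1.05, beside 22.4% of all genes. Besides Shh they were Hhat, which attaches palmitate to the ligand (3.91 and 1.89 FPKM, log2 ratio -1.05), and Scube2, which helps release it (1.66 and 0.784 FPKM, -1.08). Relative to the median gene Hhat (-0.76) and Scube2 (-0.79) missed the limit, which left Shh alone of the 5, beside 16.5% of all genes. Scube3 was at 14.4 and 8.49 FPKM and Scube1 at 12.9 and 8.23 FPKM (status FAIL). Disp1, the exporter of the ligand, was listed at 0 in both genotypes.

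Ptch1, the receptor that restrains Smo and is induced by the pathway, had the highest level of the 9 genes in both genotypes. It was measured at 129 FPKM in Hb9 control and 104 FPKM in A2 SMA. The log2 ratio of -0.32 was -0.03 relative to the median gene, and 48.6% of all genes had a lower ratio. Its place among all genes was near the same, with 94.1% of genes below it in Hb9 control and 92.8% in A2 SMA. The ratio of Ptch1 to Shh levels was therefore 1.93 in Hb9 control and 8.25 in A2 SMA. The table gives the row of Ptch1 the status FAIL, Cuffdiff's mark for a numerical failure in testing that row. Its locus is chr13:63609640-63674474.

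Hhip, which binds ligand at the membrane, had the lowest level of the 9 genes in both genotypes. It was at 4.18 FPKM in Hb9 control and 3.86 FPKM in A2 SMA. Its log2 ratio of -0.12 became 0.17 relative to the median gene, so its direction depended on the scaling. The Hhip locus is chr8:82489804-82581981. The co-receptors that present the ligand were lower or between the limits. Boc was at 6.81 and 2.58 FPKM (-1.40), Gas1 at 11.6 and 5.06 FPKM (-1.19) and Cdon at 23.7 and 17.9 FPKM (-0.40), while the endocytic receptor Lrp2 was at 15.1 and 9.45 FPKM (status FAIL). Of 7 receptors and co-receptors, with Smo counted among them, 3 were lower by at least 2-fold and 0 were higher, beside 22.4% and 6.83% of all genes, with a median log2 ratio of -0.68. Relative to the median gene only Boc (-1.11) of the 7 stayed past the limit, beside 16.5% of all genes. Gas1 was then at -0.90.

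Smo, the membrane protein on which the agonist acts, was measured at 36.7 FPKM in Hb9 control and 16.4 FPKM in A2 SMA, 2.24-fold lower (log2 ratio -1.17). Sufu, which holds Gli proteins in the cytoplasm, was measured at 45.7 and 20.6 FPKM, 2.22-fold lower (-1.15). The ratio of Smo to Sufu levels was close in both genotypes, at 0.804 and 0.797. Relative to the median gene both were lower by less than 2-fold, with log2 differences of -0.88 for Smo and -0.86 for Sufu. In all genes, 18.7% had a lower ratio than Smo and 18.9% a lower ratio than Sufu. The loci are chr6:29685694-29711365 for Smo and chr19:46471386-46563294 for Sufu. The Smo locus also holds the gene model Gm13717 (0.553 and 0.344 FPKM). Actr1a, a subunit of dynactin whose row ends 1160 bases from that of Sufu, was at 105 and 44.2 FPKM (-1.24).

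The other cytoplasmic regulators were counted in the same way. Of 15 genes, Sufu included, 6 were lower in A2 SMA by at least 2-fold, 9 lay between the limits and 0 were higher, beside 22.4% and 6.83% of all genes, with a median log2 ratio of -0.72. Gnas, the G protein subunit that raises cyclic AMP and so protein kinase A activity, was measured at 949 and 326 FPKM (-1.54, status FAIL). Gpr161, a ciliary receptor that acts through the same kinase, was at 7.65 and 2.66 FPKM (-1.52). Spop, which targets Gli proteins for degradation, was at 118 and 47.6 FPKM (-1.31). Its partner Cul3 was at 204 and 213 FPKM (0.06), Csnk1a1, a kinase of Gli proteins, at 318 and 256 FPKM (-0.31, status FAIL), and Btrc, the ubiquitin ligase adaptor for Gli processing, at 27.2 and 30.1 FPKM (0.15, status FAIL). The other genes past the limit were the kinases Gsk3b (72.1 and 35.1 FPKM, -1.04) and Stk36 (14.0 and 5.12 FPKM, -1.45, status FAIL). Relative to the median gene 4 of the 15 were past the limit, beside 16.5% of all genes, as Gsk3b (-0.75) and Sufu missed it.

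Genes of the primary cilium, where Smo and the Gli factors meet, were counted next. Of 20 genes, 2 were lower by at least 2-fold, 18 lay between the limits and 0 were higher, beside 22.4% and 6.83% of all genes, and the median log2 ratio was -0.38. The 2 were Kif3a, a motor subunit of ciliary transport (73.4 and 35.8 FPKM, -1.04), and Tctn1 of the transition zone (25.1 and 12.4 FPKM, -1.02). Both calls were lost relative to the median gene (-0.75 for Kif3a and -0.73 for Tctn1), where 16.5% of all genes were lower by at least 2-fold. They were also lost with the upper quartile and reference transcript scalings. The transport proteins Ift52 (40.1 and 26.7 FPKM), Ift27 (35.9 and 27.9 FPKM) and Ift140 (35.0 and 25.8 FPKM) lay between. The largest positive ratios were 0.44 for Ofd1 (8.75 and 11.9 FPKM) and 0.24 for Rpgrip1l (4.13 and 4.87 FPKM).

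The Gli factors carry the signal to the nucleus, Gli1 and Gli2 mainly as activators and Gli3 mainly as a repressor. Gli1 was measured at 8.86 FPKM in Hb9 control and 17.9 FPKM in A2 SMA, 2.02-fold higher (log2 ratio 1.01, status FAIL). Gli2 was measured at 6.85 and 13.8 FPKM, 2.01-fold higher (1.01). Gli3 was measured at 5.78 and 7.09 FPKM (0.30). All 3 were higher in A2 SMA, and Gli1 and Gli2 stood just past the 2-fold limit. Of all genes, 93.3% had a lower ratio than Gli1, 93.2% a lower ratio than Gli2, and 79.2% had a lower ratio than Gli3. The summed level of the 3 genes was 21.5 FPKM in Hb9 control and 38.7 FPKM in A2 SMA, while Gli3 made up 26.9% and 18.3% of that sum. The ratio of Sufu to the summed Gli level was 2.13 and 0.531.

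The locus of Gli1, chr10:126759172-126779006, is shared with Arhgap9, which was measured at 1.1 and 5.36 FPKM (log2 ratio 2.29, status FAIL). In GENCODE the pair lie on opposite strands and overlap by 62 bases. The labels and methods do not give strand-specific counting, so reads from the shared bases cannot be told apart, and the ratio of Gli1 is uncertain to that extent. Gli2 (chr1:120730709-120950381) and Gli3 (chr13:15555055-15821933) share their loci with no other named gene of the table.

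**Figure D2:**
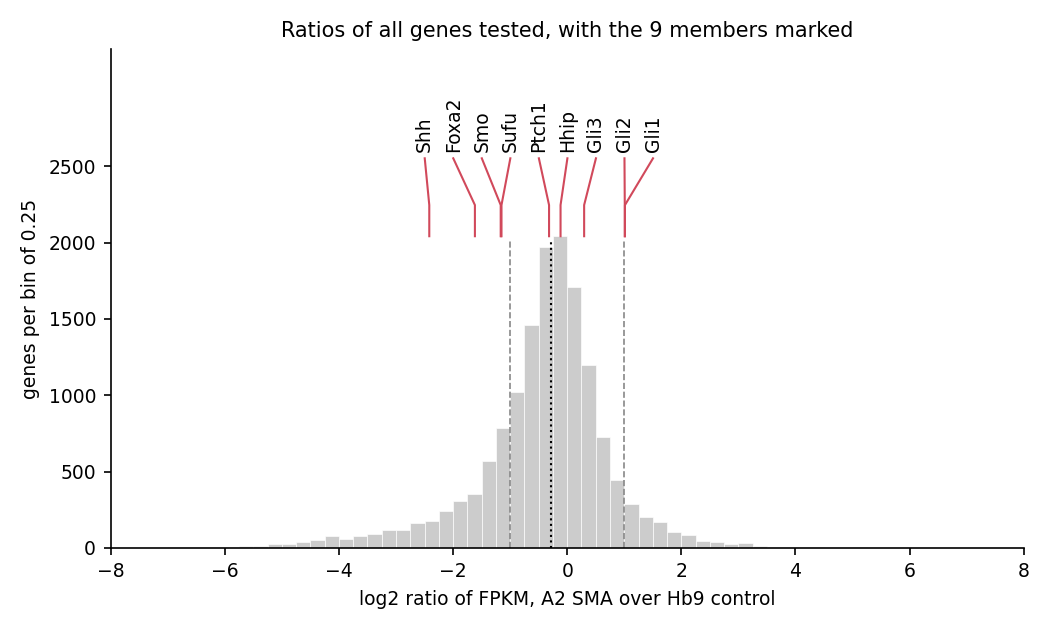
Histogram of log2 ratios of FPKM (A2 SMA over Hb9 control) for the 14926 genes, in bins of 0.25, with genes beyond the axis counted in its end bins. Red lines mark the 9 genes, the dotted line the median gene (-0.29) and the dashed lines a 2-fold difference. Shh and Foxa2 stand in the lower tail, Ptch1 at the median and Gli1 and Gli2 at the upper 2-fold line.

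Foxa2, which specifies the floor plate and is itself induced by Shh, was measured at 55.9 FPKM in Hb9 control and 18.2 FPKM in A2 SMA. It was 3.07-fold lower in A2 SMA (log2 ratio -1.62, and -1.33 relative to the median gene), and 12.1% of all genes had a lower ratio. Its row, chr2:147868613-147872705, holds no other gene. 9030622O22Rik, whose row ends 2658 bases away and which is named here after its values were seen, was at 4.64 and 1.53 FPKM (-1.60). The ratio of Shh to Foxa2 levels was 1.20 in Hb9 control and 0.691 in A2 SMA.

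The other floor plate genes were then counted. Of 16 listed genes 15 reached 1 FPKM, and 13 lay past 2-fold on the lower side in A2 SMA, beside 22.4% of all genes, with a median log2 ratio of -2.30. With Shh and Foxa2 left out, 11 of 13 were lower and the median was again -2.30. Ntn1 and Slit1, secreted axon guidance molecules, had the highest levels in Hb9 control. Ntn1, which attracts commissural axons, was measured at 383 and 48.5 FPKM (-2.98, status FAIL), and the repellents Slit1 and Slit2 at 258 and 16.3 FPKM (-3.98, status FAIL) and at 125 and 23.1 FPKM (-2.44). Spon1, an extracellular matrix protein of the floor plate, was at 196 and 19.8 FPKM (-3.31). Between the limits lay Sulf1 (67.3 and 34.6 FPKM, -0.96) and Lmx1b (13.0 and 12.3 FPKM, -0.08), both with status FAIL, and Lmx1b was at 0.21 relative to the median gene. Lmx1a, a factor related to Lmx1b, was below 1 FPKM in both genotypes (0.0994 and 0.151 FPKM). The summed level of the 16 genes was 1310 FPKM in Hb9 control and 215 FPKM in A2 SMA. Several of these genes, the Slit genes among them, are also expressed by other neural cells.

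Foxa2 and Shh mark notochord as well, and Foxa2 marks endoderm, so these lists were read beside the floor plate. The notochord factors T (0.0674 and 0.782 FPKM) and Noto (0.131 and 0.0542 FPKM) were below 1 FPKM in both genotypes. With Shh and Foxa2 left out, 1 of 4 notochord genes at or above 1 FPKM was lower (Nog, 6.10 and 1.20 FPKM), and 2 were higher, the keratins Krt8 (log2 ratio 1.21) and Krt18 (26.3 and 53.3 FPKM, 1.02), which epithelia also express, beside 22.4% lower and 6.83% higher among all genes. The summed notochord list was at 164 and 97.8 FPKM with Shh and Foxa2 and at 40.7 and 67.0 FPKM without them. Of the 14 endoderm genes 10 reached 1 FPKM. Of these, 4 were lower by at least 2-fold, Foxa2 among them, beside 22.4% of all genes. Relative to the median gene 2 were lower, beside 16.5% of all genes. The median log2 ratio was -0.63 and the summed levels were 210 and 58.4 FPKM. With Foxa2 left out, 3 of 9 were lower, the median was -0.59 and the sums were 154 and 40.2 FPKM. The largest difference there was that of Cxcr4, a chemokine receptor also found in neural cells, at 105 and 7.24 FPKM (-3.86). The endoderm factor Gata4 was at 16.9 and 10.7 FPKM (-0.66, status FAIL) and Foxa1, which also marks floor plate, at 8.82 and 3.76 FPKM (-1.23). Ttr was at 0.841 and 1.19 FPKM and Sox7 at 3.57 and 3.89 FPKM, while Cer1 was listed at 0 in Hb9 control and at 0.0397 FPKM in A2 SMA. The part of such cells in the levels of Foxa2 and Shh was not tested.

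The targets of the pathway differed among themselves. Of 19 genes known to be induced by Hedgehog signaling, 17 were found under their symbols, 12 were lower in A2 SMA by at least 2-fold and 1 was higher, beside 22.4% and 6.83% of all genes, with a median log2 ratio of -2.03. The lowest ratios were those of Olig2, Nkx2-2 and Nkx6-1, factors of ventral progenitors. Olig2, which specifies MN progenitors, was measured at 32.1 and 0.704 FPKM (-5.51), Nkx2-2, which marks the progenitors next to the floor plate, at 52.5 and 1.33 FPKM (-5.30), and Nkx6-1, which is needed for MN identity, at 158 and 7.46 FPKM (-4.40). The G1 cyclin gene Ccnd1 was at 93.8 and 36.8 FPKM (-1.35) and Rab34, a GTPase needed for cilium formation, at 124 and 37.8 FPKM (-1.71).

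Targets that are themselves pathway components were also counted apart. Among Gli1, Ptch1 (both with status FAIL) and Hhip, 0 of 3 were lower by at least 2-fold and 1 was higher, beside the same shares of all genes as above, with a median log2 ratio of -0.12 and summed levels of 142 and 126 FPKM. Among the 14 other targets measured, 12 were lower and 0 higher, beside 22.4% and 6.83% of all genes, with a median of -2.15 and summed levels of 807 and 197 FPKM. The groups overlap, since Mycn (0.14) and Foxf2 (0.04) lie within the range of the 3 components (-0.32 to 1.01). This division was made after the values were seen and was not tested. The summed glial and radial glial markers, which neural progenitors also express, were at 2175 and 206 FPKM, with 6 of 7 genes lower by at least 2-fold, beside 22.4% of all genes, and Gfap below 1 FPKM in both genotypes. Markers of glia and MNs were thus lower along with these targets while those of pluripotent cells were higher, and their part in the levels was not tested.

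**Figure D3:**
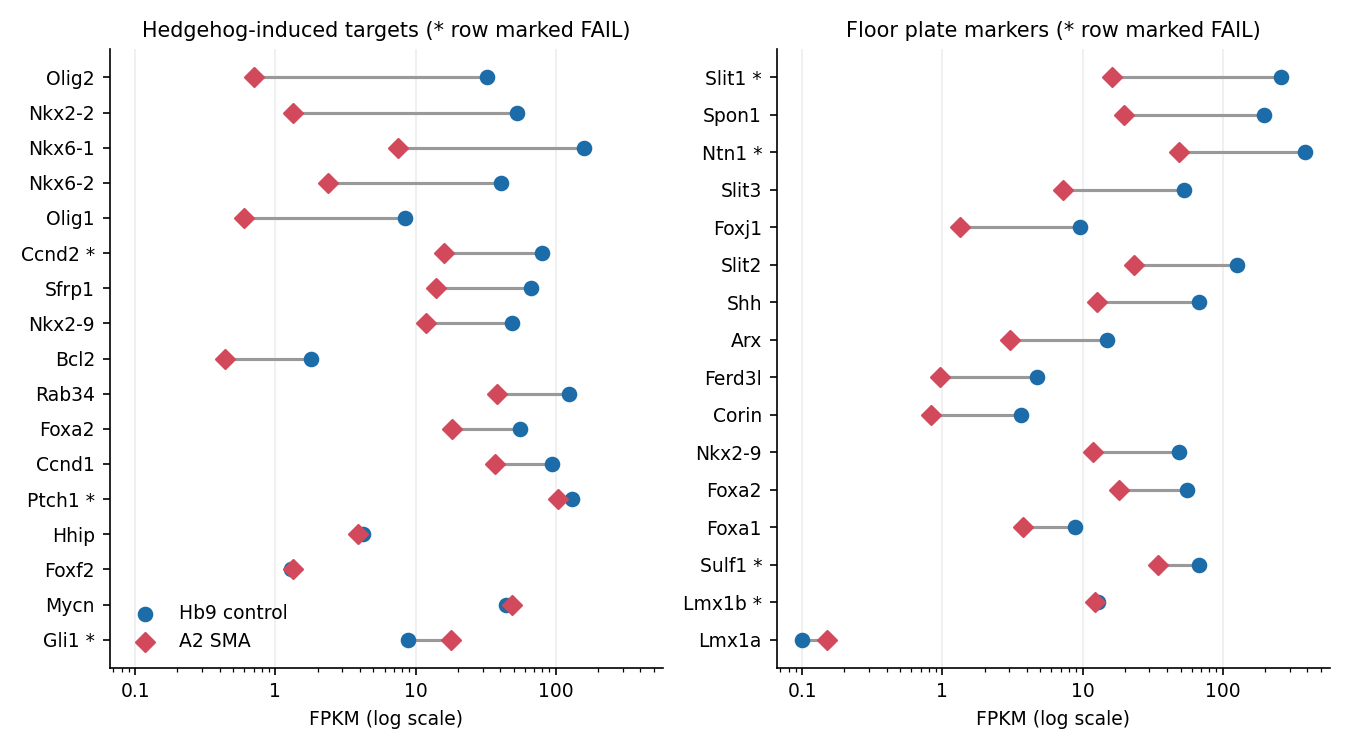
FPKM of the Hedgehog-induced targets (left) and floor plate markers (right) on log axes, 1 pooled value per genotype, ordered by log2 ratio with the lowest at the top. Blue circles are Hb9 control and red diamonds A2 SMA, and asterisks mark rows with status FAIL. The diamonds lie to the left in 12 targets by at least 2-fold, and Ptch1, Hhip and Gli1 are among the lowest lines of the left panel.

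Among the targets with a promoter entry, the core CCACCCA was in 3 of 15 windows (20%, beside 9.30% of all windows), in Olig2, Nkx2-9 and Mycn. Shares in lists of cell types varied. The core was in 2 of 10 windows of pluripotent stem cell genes (20%), 2 of 11 of endoderm genes (18.2%, both of Hnf4a) and 1 of 6 of glial genes (16.7%). It was in 1 of 11 floor plate windows (9.09%, that of Nkx2-9), 0 of 10 of MN genes and 0 of 8 of notochord genes. With so few windows per list, nothing particular to the targets is read from it. The match in Nkx2-9, a target of the ventral midline, is shown because it lies upstream of any annotated exon. It begins at position -207 relative to the start site, within chr12:56613458-56613517 (minus strand) of GRCm38.p6, with the match in capitals.
Nkx2-9: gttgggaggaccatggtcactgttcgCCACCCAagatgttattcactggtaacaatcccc

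Nkx2-9 was measured at 48.9 FPKM in Hb9 control and 11.9 FPKM in A2 SMA (log2 ratio -2.04), Olig2 had the lowest ratio of the targets, and Mycn, a proliferation gene of neural progenitors, was at 43.9 and 48.4 FPKM (0.14). A match was thus present in targets with low ratios and in one near 0. The forkhead motif was in 1 of 11 floor plate windows (9.09%), that of Foxa1, beside 3.65% of all windows. The stretch upstream of that start overlaps an annotated exon of Foxa1.

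Genes that Hedgehog signaling represses were examined as the counterpart of the targets. Of 10 listed genes 7 reached 1 FPKM, and 5 had a level in A2 SMA lower by at least 2-fold, 2 lay between the limits and 0 were higher, beside 22.4% and 6.83% of all genes, with a median log2 ratio of -1.40. Pax6, a factor of intermediate progenitors, was measured at 22.4 and 21.4 FPKM (-0.07) and Irx3, which bounds the MN progenitor domain, at 14.0 and 5.02 FPKM (-1.48). Irx5 was at 5.39 and 0.974 FPKM (-2.47) and Dbx1, of more dorsal interneuron progenitors, at 1.23 and 0.177 FPKM (-2.80). The dorsal factors Pax3 (0.279 and 0.564 FPKM) and Pax7 (0.189 and 0.119 FPKM) were below 1 FPKM in both genotypes. Induced and repressed genes were thus both lower in A2 SMA by their medians. The co-receptors Cdon, Boc and Gas1, given above, are also in this list.

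**Figure D4:**
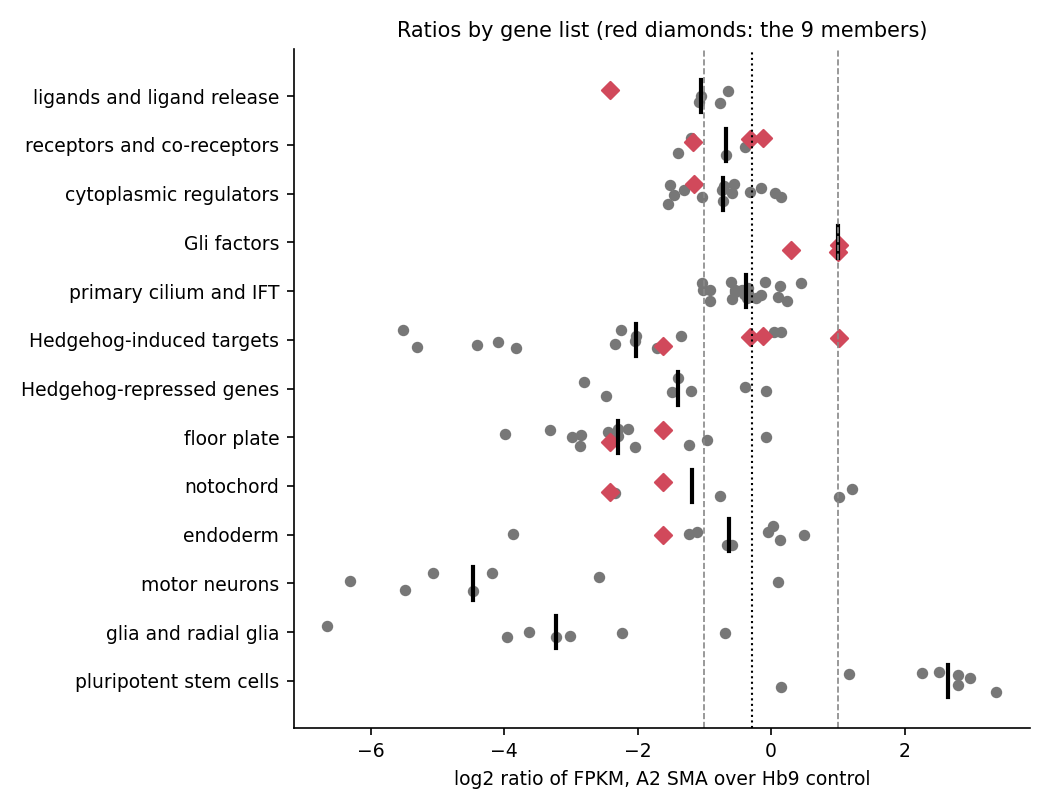
Log2 ratios of FPKM (A2 SMA over Hb9 control) by gene list for genes at or above 1 FPKM in either genotype. Gray points are genes, red diamonds the 9 pathway genes, black bars list medians, the dotted line the median of all genes and the dashed lines a 2-fold difference, with IFT standing for intraflagellar transport. The medians run from -4.47 for MN markers through -2.30 for floor plate and -0.38 for cilium genes to 2.65 for pluripotent stem cell markers.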

How the data were processed

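RNA from sorted GFP+ cells of 3 Hb9 control and 3 A2 SMA samples was sequenced. Per the labels and the methods, the authors checked reads with FastQC (0.10.1), trimmed them with CutAdapt, mapped them to NCBI m37 with TopHat (2.04) and estimated abundance with Cufflinks and Cuffdiff. The authors deposited 1 FPKM value per gene and genotype, which pools 3 samples. The table therefore gives neither the spread between samples nor read counts, library totals were not used here, and no test was made. Columns with the authors' fold changes, test statistics, p-values, q-values and significance calls were not used. The status column served to name rows marked FAIL, which were 14.0% of the genes tested, and to leave them out in an added alternative.

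The gene column was split at commas, and the row with the highest FPKM was taken per symbol (Python 3.11.15, pandas 2.3.3). The ratio log2(A2 SMA/Hb9 control) was computed without a pseudocount for genes at or above 1 FPKM in either genotype and above 0 in both. Levels between genes were compared in FPKM, which is per length. Locus starts were written counting from 1. From each of the lists the text names the 4 genes with the highest FPKM and the 2 with the largest rise and 2 with the largest fall, beside all 9 members. Genes outside this rule were named after their values were seen. The members and lists were chosen with earlier results of these data known. Promoter sequences are RefSeq (GRCm38.p6), and 98 of 132 listed genes had an entry, so their coordinates are not those of the table's build. The script was tested on simulated data. Some items are not reported here. Alternatives were pseudocounts, scalings, filters, fold limits and row choices.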

Additional observations from a re-analysis of the deposited data

How the results depend on the processing

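Pseudocounts and scalings gave 45 values for the 9 log2 ratios, of which 35 kept their direction and their side of the 2-fold limit. A further 25 values, from other row choices, could not move, since each gene has 1 row. Of 168 list counts above 0 at the outset, 141 stayed within 1.5 times. The number of the 9 genes lower in A2 SMA by at least 2-fold was 4, and it was 2 when ratios were centred on the median gene or scaled to the upper quartile, since Smo (-0.88 in both) and Sufu (-0.86 in both) then missed the limit. It was 1 with a 4-fold limit. The number higher was 2, and it was 1 with 0.1 FPKM added (Gli2 at 1.00, under the limit before rounding), 0 with 1 FPKM added (Gli1 at 0.94, Gli2 at 0.91) and 0 with a 4-fold limit. It was 1 without the rows marked FAIL, which removes Gli1 (this alternative was added once the data had been seen). Hhip went from -0.12 to 0.17 with either centring and to 0.02 when scaled to Gusb, Pgk1 and Rpl13a. Centring changed the shares of all genes from 22.4% lower and 6.83% higher to 16.5% and 10.4%.

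No paired analysis was possible because the table holds 1 pooled value per genotype and carries no replicate numbers. For the same reason no sample was left out, and differences near the 2-fold limit, such as those of Gli1, Gli2, Smo and Sufu, have no measured error. The table gives no read counts behind its FPKM values, so low values, such as those of the other ligands, have no stated precision.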
